A study of Homo sapiens with 26 samples.

Results

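Histone marks were mapped in the human colorectal cancer cell line HCT116, and are described here around 9 genes that encode transcription factors of the intestinal epithelium: CDX1, CDX2, HNF4A, KLF4, KLF5, ELF3, SOX9, GATA6 and FOXA1. The genes were chosen by name, out of 20163 protein-coding genes of the annotation, and a window was set from 100 kb before each gene to 100 kb after it. After overlapping peaks of all lists were merged, the windows held 98 of 87603 regions of H3K27ac (acetylation of lysine 27 of histone H3, found on active promoters and enhancers) and 147 of 110276 regions of H3K4me1 (methylation of lysine 4, found on enhancers that are active or primed). H3K27ac was mapped by ChIP-seq in 5 groups and H3K4me1 in 3, with 2 peak lists each, 16 lists in all. Wild-type (WT) HCT116 cells, whose p53 gene is intact, were given DMSO, the vehicle (0 h), or Nutlin-3a, which blocks the binding of HDM2 to p53 and so activates p53, for 1 or 10 h. The cell line labelled HCT116_RAD21 received DMSO (0 h) or Nutlin-3a for 1 h and was mapped for H3K27ac alone. By the study's methods this is an HCT116 derivative in which the cohesin subunit RAD21 carries an auxin-inducible degron, and RAD21 is degraded by adding 5-Ph-IAA. The labels do not say whether that compound was added to these cells, but the peak names of these 4 lists carry the letters KD. The study describes its H3K27ac samples of this line at 0 and 1 h as RAD21 knockdown, made with the degron. Untreated is used below for cells without Nutlin-3a, and does not mean that RAD21 was left intact. No list is labelled as this line with RAD21 kept. The degron tag, the handling of the line and the loss of RAD21 therefore cannot be told apart, and WT and the RAD21 line are compared as 2 lines.

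These factors share the work of keeping cells intestinal. CDX1 and CDX2 are caudal homeobox proteins, and CDX2 is the main switch for intestinal over gastric identity. HNF4A, GATA6 and FOXA1 bind enhancers of gut endoderm, KLF4 is tied to differentiated and KLF5 to dividing crypt cells, ELF3 is an epithelial ETS factor, and SOX9 marks the crypt base. An enhancer that carries H3K4me1 without H3K27ac is commonly called primed, and one with both marks active. A promoter or region was therefore called acetylated where both H3K27ac lists of a time point held a peak, primed only where both H3K4me1 lists and neither H3K27ac list did, unmarked where no list of either mark did, and mixed otherwise.

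The lists of one mark differed in ways the groups do not explain. The 10 H3K27ac lists held 31637 to 49127 peaks, and the 6 H3K4me1 lists 84492 to 92943. Peak names lacked the word input in 3 H3K27ac lists, both of WT 0 h and replicate 1 of WT 1 h, and these covered 30.7 to 31.9 Mb of the genome. The 7 others covered 49.1 to 66.6 Mb, so replicate 2 of WT 1 h (59.5 Mb) stood apart from its replicate (31.9 Mb). Whether these 3 lists were called with the same control as the others is in doubt, which bears on what their fold and -log10 p mean. Peak fold enrichment followed the same split at some promoters: that of CDX2 had a fold of 5.65 and 6.38 at WT 0 h, 6.73 and 16.1 at WT 1 h, and 28.2 and 25.7 at WT 10 h. At the GATA6 and FOXA1 promoters the WT lists of the 2 forms overlapped. FOXA1 had 4.96 and 5.61 at WT 0 h, 7.33 and 7.35 at WT 1 h, and 7.05 and 5.5 at WT 10 h. Levels were therefore compared by rank within a list and never by fold. The comparisons of WT 10 h and of the untreated RAD21 line with WT 0 h coincide fully with this split of the lists, so there time or line and list form cannot be told apart. A fit with list form as a term, given below for some calls, takes the effect of form from the 2 lists of WT 1 h alone. The peak names of replicate 2 of the untreated RAD21 line carry 2 replicate tags together. Read depth cannot be had from peak lists. With 2 lists a group, p-values measure only the spread between lists of the same group. In the fits below that spread is pooled over all groups of a mark and moderated over all regions. Epithelial identity was checked on marker promoters: 6 of 6 epithelial markers (EPCAM, CDH1, KRT8, KRT18, KRT19 and CLDN4) had H3K27ac in every list, as did 1 of 6 fibroblast markers (COL1A1), while 0 of 4 blood and 0 of 3 liver markers had it in any list. Of all coding promoters, 59.7% had H3K27ac in every list. KRT8 and KRT18 share 1 promoter region, so the epithelial markers have 5 distinct regions. With so few markers, and no test, the check is a rough one.

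Promoters (from 1000 bp before to 200 bp after an annotated start) of 7 of the 9 genes were acetylated at all 3 time points in WT and in both groups of the RAD21 line: CDX2, KLF4, KLF5, ELF3, SOX9, GATA6 and FOXA1 had an H3K27ac peak in 10 of 10 lists and an H3K4me1 peak in 6 of 6. A gene with several annotated starts counted in a list when a peak lay over any of them. KLF5 has 4 starts, and its H3K27ac region (73629551 to 73635657) began more than 200 bp past the first (73629114). The H3K4me1 region over that first start (73627943 to 73632954) overlapped H3K27ac in 7 of 10 lists. By this overlap it was primed only at WT 0 h, mixed at 1 h and acetylated at 10 h. Of all coding genes, 62.1% were acetylated at WT 0 h, 62.4% at 1 h and 61.9% at 10 h, and 59.7% had promoter H3K27ac in every list. CDX1 and HNF4A were the exceptions, with promoter H3K27ac in 0 of 10 lists. The CDX1 promoter was unmarked at each time point, as were 26.8%, 25.6% and 27% of coding promoters at 0, 1 and 10 h. This depends on the promoter bounds. Outside them, an H3K4me1 region at -2.48 kb from CDX1 was called in 5 of 6 lists. An H3K27ac region at -2.01 kb was called in replicate 2 of WT 0 h alone. With the wider promoters given below, CDX1 was not unmarked at 0 or 1 h. The HNF4A promoter had no H3K27ac either, but a small H3K4me1 peak of 457 bp lay before its upstream start (chromosome 20, 42983738 to 42984194 on GRCh37) in 3 lists, with a fold of 2.95 and 2.81 at 0 h and 2.18 in replicate 1 at 1 h. HNF4A thus went from primed only at 0 h, a state that 8.09% of coding promoters had, through mixed at 1 h to unmarked at 10 h. With peaks held to a -log10 q of at least 5 this peak drops out, and HNF4A was unmarked at 0 h too.

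**Figure D1:**
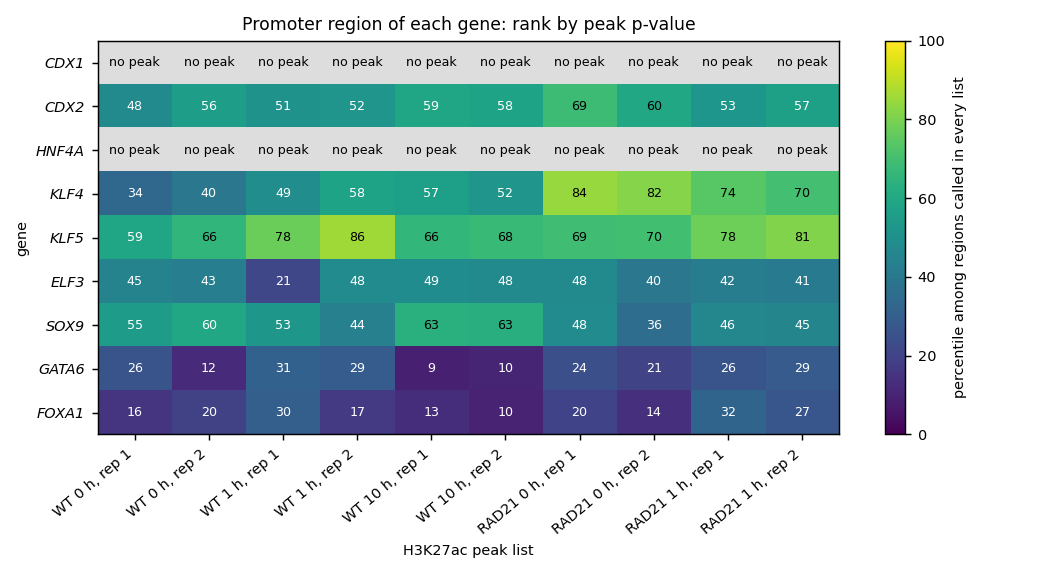
H3K27ac rank of the promoter region of each gene (rows) in the 10 peak lists (columns), as the percentile among the 18757 regions called in every list; grey cells hold no peak. KLF4 moved from 33.5 and 39.8 at WT 0 h to 84.4 and 81.7 in the untreated RAD21 line, GATA6 and FOXA1 stayed in the lower part of the scale, and CDX1 and HNF4A had no promoter peak.

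Among the acetylated promoters the level differed by gene. Of the window regions, 31 of 98 were called in every H3K27ac list, as were 18757 of 87603 over the genome, and each was placed by its percentile of -log10 p among those 18757. KLF5 (chromosome 13, gene from 73629114 to 73651679) stood highest of the 7, with its promoter region at percentiles of 59.0 and 66.0 at WT 0 h. SOX9 (chromosome 17, 70117161 to 70122557) had 55.3 and 59.5, CDX2 (chromosome 13, 28535055 to 28543452) 47.5 and 55.7, and ELF3 (chromosome 1, 201977073 to 201986311) 44.7 and 42.8. These 4 genes overlapped with a neighbour in this order or came within a few percentiles of one. KLF4 (chromosome 9, 110247133 to 110252763) followed with 33.5 and 39.8, below all 4. GATA6 (chromosome 18, 19749550 to 19782491) with 25.9 and 12.3 and FOXA1 (chromosome 14, 38058757 to 38065264) with 15.5 and 19.6 were lowest and overlapped each other. A region takes the highest peak it holds, so a broad promoter such as that of KLF5 (6107 bp) or ELF3 (6618 bp) is a different object from the 2130 bp of GATA6.

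ELF3 had the broadest H3K4me1 of the 9 windows. Peaks of H3K4me1 covered 121 and 116 kb of its 209 kb window at 0 h, 116 and 108 kb at 1 h, and 118 and 119 kb at 10 h, which put ELF3 between percentiles 99 and 99.8 of all coding genes' windows in the 6 lists. The next gene, KLF5, had 40.4 and 39.3 kb at 0 h, and FOXA1 had the least, 8.94 and 8.01 kb. After merging over the lists, the longest domain, of 64989 bp, began before the gene and ran past its end (chromosome 1, 201972799 to 202037787). The longest region of any other window had 11676 bp and lay around SOX9. By state, 13.386 kb of the ELF3 window was acetylated and 96.615 kb primed only at 0 h. At 10 h the acetylated part was 28.869 kb and the primed part 81.554 kb.

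**Figure D2:**
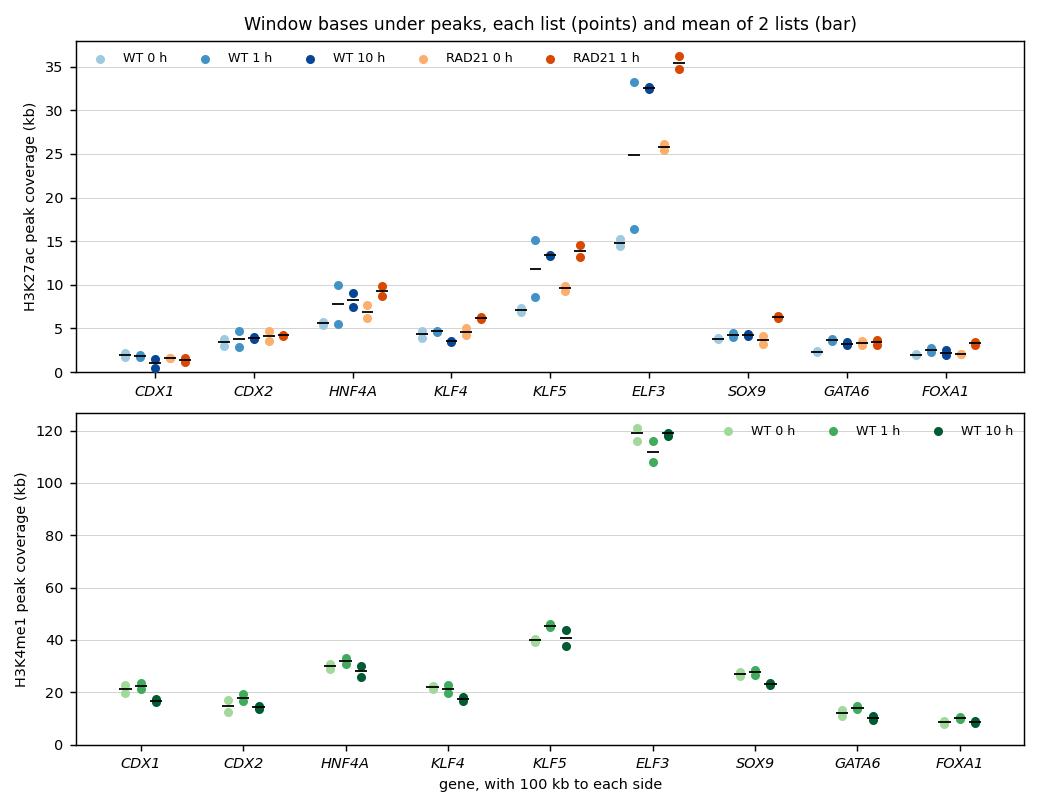
Kilobases of each gene's window (gene and 100 kb to each side) under H3K27ac peaks (upper panel, 5 groups) and under H3K4me1 peaks (lower panel, 3 groups), with 1 point for each list and a bar at the mean of 2 lists. ELF3 exceeded all other genes in both marks, and its 2 lists of WT 1 h lay at 16.4 and 33.3 kb of H3K27ac.

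H3K27ac coverage of the ELF3 window was 15.2 and 14.4 kb at WT 0 h, 16.4 and 33.3 kb at WT 1 h, and 32.5 and 32.7 kb at WT 10 h. In the RAD21 line it was 25.5 and 26.1 kb at 0 h and 36.2 and 34.7 kb at 1 h. The higher values were those of the lists that covered more of the genome. Relative to other genes the window did not climb: its coverage stood at percentiles 93.7 and 92.8 of all coding windows at WT 0 h and at 87.4 and 88.5 at WT 10 h. The KLF5 window, with 6.93 and 7.35 kb at WT 0 h and 13.4 and 13.3 kb at WT 10 h, went from percentiles 67.1 and 69.7 to 64.3 and 65.4. CDX1 was the single gene with under 2.2 kb in every list, with 1.69 and 2.19 kb at WT 0 h and 0.494 and 1.46 kb at WT 10 h. Summed over the 9 windows, H3K27ac coverage was 45.4 ± 0.116 kb at WT 0 h, 65.2 ± 21.7 kb at WT 1 h and 72.4 ± 0.528 kb at WT 10 h, and 61.7 ± 0.4 and 83.4 ± 2.84 kb at 0 and 1 h in the RAD21 line (SD, n = 2). No test is given for these sums, since an exact permutation test of 2 against 2 lists cannot go below p = 0.333.

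Seen as elements, 35 of the 147 H3K4me1 regions overlapped acetylation in both WT 0 h lists, 62 were primed only, 23 were unmarked and 27 mixed. These are 23.8%, 42.2%, 15.6% and 18.4%, against 21.2%, 39.3%, 19.7% and 19.8% of all 110276 H3K4me1 regions. At 10 h the counts were 35, 57, 23 and 32. Across all 10 H3K27ac lists, 27 regions were acetylated in every list (18.4%, against 16.6% of all) and 87 in none (59.2%, against 63.6%), so the windows as a whole were near the genome. The CDX1 window had 22 H3K4me1 regions, of which 0 were acetylated in every list and 17 in none. The nearest to its start that was called in 6 of 6 H3K4me1 lists lay at -5.21 kb. Its percentile among regions called in all 6 was 81.8 and 78.9 at 0 h, 49.3 and 57.1 at 1 h and 67 and 63.1 at 10 h. In the rank test of H3K4me1 given below it was not called at 1 or 10 h. HNF4A had 19 regions with 11 in none. SOX9 had 7 of 10 in none and FOXA1 5 of 7, and 2 regions in each of these windows, the promoter among them, were acetylated in every list.

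**Figure D3:**
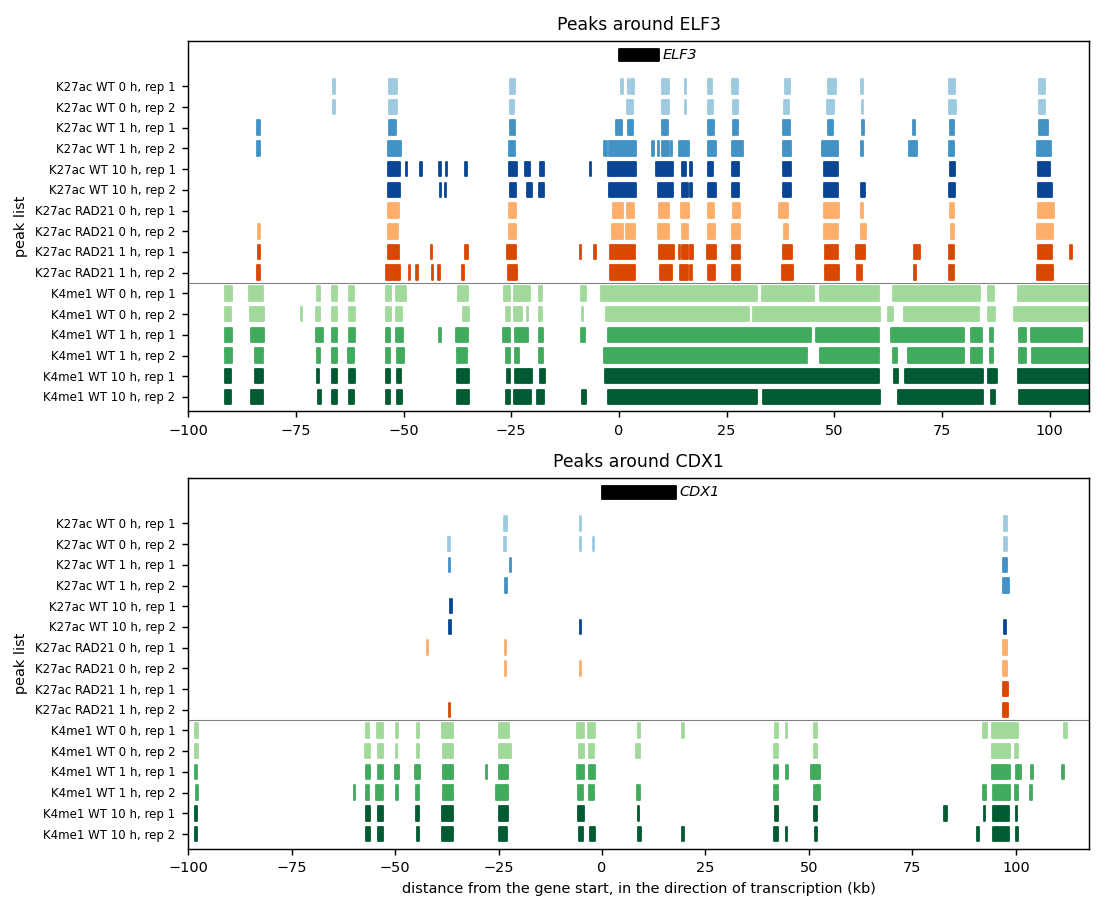
Peaks in the windows of ELF3 (upper panel) and CDX1 (lower panel) by distance from the gene start in the direction of transcription (kb), with 1 row for each of the 10 H3K27ac and 6 H3K4me1 lists and the gene as a black bar. The broad H3K4me1 domain of ELF3 holds a row of H3K27ac regions present in every list, while the body of CDX1 holds none.

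Outside the promoters, the region with the highest mean percentile in each window showed which distal acetylation was strongest. In 6 windows it lay in intergenic or intronic sequence called in 10 of 10 lists: at 35.59 kb from the start of KLF5, 99.08 kb from ELF3, 9.54 kb from KLF4, 30.79 kb from SOX9 (in an intron of the lncRNA SOX9-AS1), 113.22 kb from GATA6 and 12.62 kb from FOXA1. In the windows of CDX1, CDX2 and HNF4A it touched an exon of CAMK2A, of the lncRNA LINC00543 and of SERINC3. In the HNF4A window all 5 regions called in every list sat at other genes (FITM2, TTPAL, SERINC3 and PKIG). Within HNF4A itself, 1 exonic region at 52.0 kb (chromosome 20, 43035834 to 43036843) was called in 7 of 10 lists. The 6 distal regions are shown by the 300 bases around their median summit, from the GRCh37 reference genome, plus strand, because they are the most strongly acetylated distal elements beside these genes. Capitals mark matches, on either strand, of 8 motifs. The motif searched for CDX factors was TTTATG, in the orientation given or its reverse complement. For GATA factors the letters searched were AGATAA, the core these zinc fingers bind. FOXA proteins were represented by TGTTTAC, a forkhead core. The SOX family was searched with ACAATG, as bound by its HMG box. A run of CAAAGTCCA stood for HNF4, a nuclear receptor. Krüppel-like factors were searched as GGGNGNGG, a GC-rich box. The ETS group, to which ELF3 belongs, was given by AGGAAG, and p53 by the decamer of its response element.
KLF5, 35.59 kb, chr13:73664297-73664596: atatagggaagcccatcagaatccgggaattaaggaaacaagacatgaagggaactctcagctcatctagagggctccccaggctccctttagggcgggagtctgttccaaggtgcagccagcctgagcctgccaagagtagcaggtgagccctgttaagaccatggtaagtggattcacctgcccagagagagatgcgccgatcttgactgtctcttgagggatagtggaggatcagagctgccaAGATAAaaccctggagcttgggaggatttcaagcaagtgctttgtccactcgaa
ELF3, 99.08 kb, chr1:202075119-202075418: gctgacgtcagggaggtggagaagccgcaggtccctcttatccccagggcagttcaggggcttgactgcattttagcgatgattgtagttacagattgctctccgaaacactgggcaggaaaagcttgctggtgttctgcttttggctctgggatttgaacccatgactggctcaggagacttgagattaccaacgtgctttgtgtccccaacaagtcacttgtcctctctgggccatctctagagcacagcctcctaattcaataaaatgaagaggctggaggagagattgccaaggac
KLF4, 9.54 kb, chr9:110242998-110243297: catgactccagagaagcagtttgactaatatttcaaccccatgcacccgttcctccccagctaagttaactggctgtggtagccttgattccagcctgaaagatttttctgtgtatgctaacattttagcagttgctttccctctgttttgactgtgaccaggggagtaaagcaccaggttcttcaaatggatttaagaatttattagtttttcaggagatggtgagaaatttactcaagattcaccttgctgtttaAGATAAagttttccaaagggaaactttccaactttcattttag
SOX9, 30.79 kb, chr17:70147895-70148194: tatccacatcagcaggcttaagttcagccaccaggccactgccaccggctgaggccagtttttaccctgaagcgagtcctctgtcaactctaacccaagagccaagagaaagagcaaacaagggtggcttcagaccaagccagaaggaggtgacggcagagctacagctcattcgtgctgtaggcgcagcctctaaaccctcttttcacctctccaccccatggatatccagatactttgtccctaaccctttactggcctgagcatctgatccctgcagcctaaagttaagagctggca
GATA6, 113.22 kb, chr18:19862227-19862526: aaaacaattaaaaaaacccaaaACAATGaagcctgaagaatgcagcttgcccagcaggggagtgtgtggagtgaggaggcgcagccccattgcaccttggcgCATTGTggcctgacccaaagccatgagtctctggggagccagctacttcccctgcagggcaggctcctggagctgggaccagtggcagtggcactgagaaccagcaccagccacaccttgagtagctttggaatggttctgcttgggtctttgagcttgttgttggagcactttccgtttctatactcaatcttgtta
FOXA1, 12.62 kb, chr14:38052717-38053016: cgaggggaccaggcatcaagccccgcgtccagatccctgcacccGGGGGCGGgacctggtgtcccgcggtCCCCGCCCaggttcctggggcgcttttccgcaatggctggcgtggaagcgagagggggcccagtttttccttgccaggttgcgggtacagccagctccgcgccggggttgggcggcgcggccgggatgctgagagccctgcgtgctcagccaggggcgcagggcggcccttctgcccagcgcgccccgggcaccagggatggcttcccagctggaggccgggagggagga

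The KLF5 and KLF4 sequences each held 1 GATA match, which 11.4% of 62053 non-promoter H3K27ac regions held in a window of the same length. GATA6 held 2 SOX matches (11% of regions hold any), and FOXA1, whose sequence is 73.3% G and C, held 2 KLF matches (33.9%). The ELF3 and SOX9 sequences held none of the 8 motifs, and no FOXA or HNF4 match was seen in the 6 (3.15% and 0.364% of regions). Nor was a CDX, ELF/ETS or p53 match (11.9%, 30.8% and 10.8%). No motif overlapped another. A match is a run of letters and not a bound site.

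Peak rank over time was tested with limma. Within each list the regions called in every list were ranked by -log10 p, ranks were turned into normal scores (units of SD), and group means were compared with adjustment over all 18757 H3K27ac regions. A positive change means a higher rank, not more acetylation in absolute terms. At 1 h of Nutlin-3a in WT, 4 of 31 window regions were ranked higher (12.9%, against 14.3% of all regions) and 4 lower (12.9%, against 14.8%), so the windows were near the background. The promoters of KLF5 and KLF4 were among the higher. The KLF5 promoter went from percentiles 59.0 and 66.0 to 77.6 and 85.6 without overlap (change 0.59, SE 0.127, adjusted p = 0.0044), and at 10 h it was back at 66.4 and 67.7. The KLF4 promoter went from 33.5 and 39.8 to 49.2 and 57.9 (change 0.43, SE 0.124, adjusted p = 0.0199) and stood at 56.6 and 52.0 at 10 h. Without replicate 1 of WT 0 h the adjusted p was 0.0619 for KLF5 and 0.159 for KLF4, and for KLF4 it was 0.0583 without replicate 2 of WT 1 h. The promoter of RNPEP, an aminopeptidase gene beside ELF3, was the third of the higher (change 0.42, SE 0.107, adjusted p = 0.0116, and 0.1 without replicate 1 of WT 0 h). A region 41.22 kb from KLF5 was the fourth, at 4.92 and 3.16 before and 13.1 and 13.7 after (change 0.65, SE 0.195, adjusted p = 0.0249).

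The regions ranked lower at 1 h were the promoter of SERINC3 in the HNF4A window (change -1.03, SE 0.118, adjusted p = 0.000154), which went from 98.0 and 97.9 to 84.5 and 84.5, the region 99.08 kb from ELF3 (change -0.47, SE 0.134, adjusted p = 0.0201), the exon of LINC00543 beside CDX2 (change -0.75, SE 0.233, adjusted p = 0.0293) and the region 77.38 kb from ELF3, from 31.3 and 41.1 to 12.1 and 14.5 (change -0.76, SE 0.268, adjusted p = 0.0479). The ELF3 region at 99.08 kb went from 63.4 and 63.7 to 38.2 and 52.4, and its call was lost without any one of 3 lists (adjusted p = 0.0959 and 0.0988 without replicates 1 and 2 of WT 0 h, 0.0786 without replicate 1 of WT 1 h). The LINC00543 exon went from 53.3 and 51.3 to 38.0 and 14.2, the lower value being that of the list that stood apart, and the adjusted p was 0.17 without it and 0.137 and 0.112 without replicates 1 and 2 of WT 0 h. Without replicate 1 of WT 0 h the count of called regions in this comparison was 1 in place of 8, and without replicate 2 it was 4. Ranked by fold enrichment in place of -log10 p, it was 0 (3 at an unadjusted p under 0.05).

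At 10 h, 3 window regions were ranked higher (9.68%, against 9.7% of all regions) and 2 lower (6.45%, against 8.56%). The clearest was an intergenic region 49.19 kb from ELF3, within its broad H3K4me1 domain (chromosome 1, 202024303 to 202028226). Its percentile was 32.1 and 29.9 at WT 0 h, 40.9 and 44.8 at 1 h and 63.8 and 67.3 at 10 h, with no overlap between the groups (change at 10 h 0.89, SE 0.117, adjusted p = 0.000591). It kept its call when ranked by fold (adjusted p = 0.0294), with the list form as a term (adjusted p = 0.0158) and without any one list. The region 41.22 kb from KLF5 went from 4.92 and 3.16 to 22.1 and 20.6 (change 0.96, SE 0.195, adjusted p = 0.00652), and the KLF4 promoter had a change of 0.45 (SE 0.124, adjusted p = 0.0253). With the list form as a term these 2 had adjusted p = 0.144 and 0.528. Leaving out a WT 0 h or 10 h list ended the KLF4 call each time (adjusted p from 0.0738 to 0.18), and the KLF5 call was lost without replicate 2 of WT 0 h (0.0628) or either 10 h list (0.0533 and 0.0517).

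Ranked lower at 10 h were the region 9.54 kb from KLF4, from 25.2 and 28.2 to 2.57 and 17.1 (change -0.83, SE 0.247, adjusted p = 0.0353), and the LINC00543 exon beside CDX2, from 53.3 and 51.3 to 35.3 and 17.5 (change -0.71, SE 0.233, adjusted p = 0.0486). Neither call held without either WT 0 h list (adjusted p from 0.128 to 0.194) or without any one list of the RAD21 line (0.0526 to 0.0726), and the LINC00543 change turned to 0.05 with the list form as a term. The count of called regions was 5 with all lists. It was 2 and 1 without replicates 1 and 2 of WT 0 h, 1 and 2 without replicates 1 and 2 of WT 10 h, 3 without any one list of the RAD21 line, and 10 without either list of WT 1 h. The promoters of CDX2, ELF3, SOX9, GATA6 and FOXA1 passed no threshold at 1 or 10 h. Of these, SOX9 stood at 55.3 and 59.5 at 0 h, 53.1 and 43.7 at 1 h and 63.4 and 62.7 at 10 h.

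**Figure D4:**
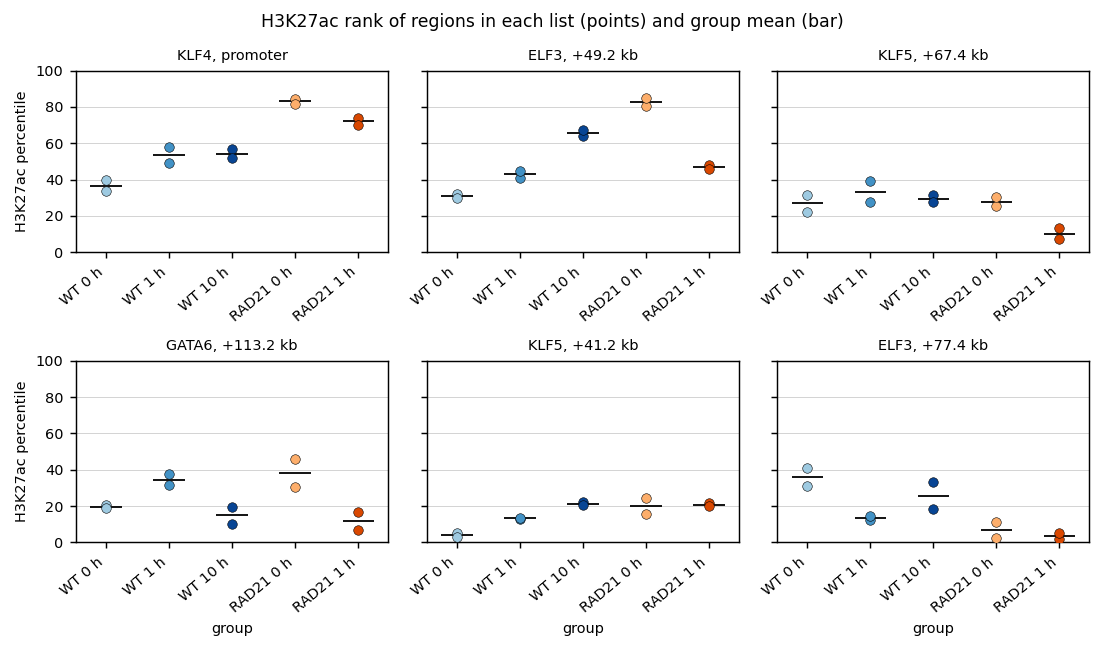
H3K27ac percentile, among regions called in every list, of 6 regions in the 5 groups, with 1 point for each list and a bar at the group mean. The KLF4 promoter and the ELF3 region at 49.2 kb were highest in the untreated RAD21 line, the KLF5 region at 67.4 kb was lowest in the RAD21 line at 1 h, and the ELF3 region at 77.4 kb was lower in the RAD21 line than at WT 0 h.

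The untreated RAD21 line was compared with untreated WT, a comparison in which line and list form coincide fully and cannot be told apart. In the untreated RAD21 line, 6 window regions were ranked higher than in untreated WT (19.4%, against 16.8% of all regions) and 4 lower (12.9%, against 20.7%). The KLF4 promoter stood at 84.4 and 81.7 against 33.5 and 39.8 (change 1.30, SE 0.124, adjusted p = 6.47e-06). The ELF3 region at 49.19 kb stood at 80.6 and 85.2 against 32.1 and 29.9 (change 1.45, SE 0.117, adjusted p = 1.84e-06). Both were above every WT list at any time. The 3 WT lists that share the form of the RAD21 lists are all of cells given Nutlin-3a. No untreated WT list has that form, so line and form stay joined here. Both calls held when ranked by fold (adjusted p = 0.00969 and 0.00568), with the list form as a term (0.000121 and 1.11e-05) and without any one list. The third region ranked higher by its p was the promoter of PKIG, a protein kinase inhibitor gene in the HNF4A window, at 92.7 and 86.2 against 56.5 and 53.4 (change 1.15, SE 0.137, adjusted p = 4.1e-05), and its call was lost when ranked by fold (0.173). The other 3 were the KLF5 region at 41.22 kb (15.4 and 24.6 against 4.92 and 3.16), the exonic ELF3 region at 10.62 kb (59.5 and 46.0 against 25.0 and 33.6) and the ELF3 region at 21.57 kb (29.2 and 41.6 against 23 and 11.4).

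Ranked lower in the untreated RAD21 line were the SERINC3 promoter, at 84.1 and 82.3 against 98.0 and 97.9 (change -1.08, SE 0.118, adjusted p = 1.93e-05), and the ELF3 region at 77.38 kb, at 2.67 and 11 against 31.3 and 41.1 (change -1.22, SE 0.268, adjusted p = 0.00327). The TTPAL promoter in the HNF4A window also was (change -0.50, SE 0.123, adjusted p = 0.00694), though not without replicate 1 of WT 0 h (0.072) or with the list form as a term (0.214). The fourth was the SOX9 promoter, at 48.3 and 35.6 against 55.3 and 59.5 (change -0.39, SE 0.136, adjusted p = 0.0358). The CDX2, KLF5, ELF3, GATA6 and FOXA1 promoters passed no threshold.

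After 1 h of Nutlin-3a the RAD21 line had 1 window region ranked higher than before (3.23%, against 14.4% of all regions) and 6 lower (19.4%, against 13.4%). Of the 6, 4 were distal. The ELF3 region at 49.19 kb went from 80.6 and 85.2 to 47.9 and 45.6 (change -1.04, SE 0.117, adjusted p = 6.36e-05). The ELF3 region at 27.56 kb went from 56.9 and 59.3 to 32.4 and 33.2 (change -0.65, SE 0.131, adjusted p = 0.00282). The GATA6 region at 113.22 kb went from 30.7 and 46.0 to 6.97 and 16.7 (change -0.92, SE 0.213, adjusted p = 0.00651), and the KLF5 region at 67.4 kb from 25.3 and 30.5 to 7.18 and 13.4 (change -0.70, SE 0.181, adjusted p = 0.0124). None of these pairs of groups overlapped. The other 2 were promoters, that of PKIG, from 92.7 and 86.2 to 52.3 and 49.2 (change -1.25, SE 0.137, adjusted p = 5.23e-05), and that of KLF4, from 84.4 and 81.7 to 74.1 and 70.2 (change -0.37, SE 0.124, adjusted p = 0.0408). The SERINC3 promoter was the region ranked higher (change 0.41, SE 0.118, adjusted p = 0.0194), a call that was lost without any one list of the RAD21 line (0.0683 to 0.125). The count of called regions was 7 with all lists, 3 without replicate 2 of the untreated line, 3 without replicate 1 of the treated line, 11 without replicate 1 of WT 1 h and 0 when ranked by fold (6 at an unadjusted p under 0.05).

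The test of the difference itself, taken as the 1 h change of the RAD21 line less the 1 h change of WT, called 2 window regions higher (6.45%, against 11.7% of all regions) and 5 lower (16.1%, against 11%). The ELF3 region at 49.19 kb was ranked lower after Nutlin-3a in the RAD21 line while in WT it went from 32.1 and 29.9 to 40.9 and 44.8, a difference of -1.35 (SE 0.165, adjusted p = 0.000164). For the KLF4 promoter, lower in the one line and higher in the other, the difference was -0.80 (SE 0.175, adjusted p = 0.00596), and for the PKIG promoter -1.23 (SE 0.194, adjusted p = 0.000832). The GATA6 region at 113.22 kb (-1.37, SE 0.302, adjusted p = 0.00609) and the KLF5 region at 67.4 kb (-0.89, SE 0.256, adjusted p = 0.0254) were the other 2. In the opposite direction stood the SERINC3 promoter (1.44, SE 0.167, adjusted p = 0.000115) and the ELF3 region at 39.15 kb (0.95, SE 0.292, adjusted p = 0.0328, a call lost without replicate 1 of WT 0 h or any one list of the RAD21 line, at 0.057 to 0.135). The number of calls was 13 in place of 7 without replicate 1 of WT 1 h, and ranked by fold it was 0 (6 at an unadjusted p under 0.05).

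Between the lines at 1 h, 2 window regions were ranked higher in the RAD21 line (6.45%, against 5.68% of all regions) and 3 lower (9.68%, against 6.15%). The KLF4 promoter (change 0.50, SE 0.124, adjusted p = 0.0224) and an exonic region of ELF3 at 10.62 kb (change 0.60, SE 0.15, adjusted p = 0.0228) were higher. The KLF5 regions at 67.4 kb (change -0.85, SE 0.181, adjusted p = 0.011) and 35.59 kb (change -0.60, SE 0.159, adjusted p = 0.0298) and the GATA6 region at 113.22 kb (change -0.83, SE 0.213, adjusted p = 0.0258) were lower. With replicate 1 of the treated RAD21 line left out, the count of 5 became 0, with replicate 2 left out it became 1, and without replicate 2 of WT 1 h it was 8. Ranked by fold it was 0 (5 at an unadjusted p under 0.05). The comparisons share lists: WT 0 h enters 4 of them, so their calls are not independent.

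H3K4me1 rank was tested in the same way. Of 90 window regions called in all 6 lists, 0 were ranked higher at 1 h (0.291% of 60476 regions over the genome were) and 1 lower (0.304%), and at 10 h 1 was ranked higher (0.615%) and 0 lower (0.0231%). The limma test had 19 of the 90 at an unadjusted p under 0.05 at 1 h (21.1%, against 15.5% of all regions) and 10 at 10 h (11.1%, against 8.66%). The region called at 1 h lay in an intron of PIBF1, -71.92 kb from KLF5, at 89.8 and 85.4 at 0 h, 63.5 and 55.2 at 1 h and 93.6 and 90.8 at 10 h (change at 1 h -0.92, SE 0.174, adjusted p = 0.0299). The region called at 10 h lay over an exon of RNPEP, -18.17 kb from the start of ELF3 (chromosome 1, 201957966 to 201959848). It stood at 13.2 and 2.99 at 0 h, 6.3 and 20.1 at 1 h and 61.9 and 60.5 at 10 h (change 1.78, SE 0.351, adjusted p = 0.0273). Both calls were lost when ranked by fold (adjusted p = 0.167 and 0.183). The first was lost without any one of the 6 lists (0.05 to 0.216), the second without replicate 2 of 0 h (0.246) or either 10 h list (0.335 and 0.23).

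Gains and losses of whole regions, called in both lists of one group and in neither of the other, were few in the windows. Of 18 H3K27ac regions that changed in any of the 5 comparisons, 10 (55.6%) lay in the ELF3 window, which holds 36 of the 98 window regions (36.7%). Of the H3K4me1 changes 0 lay there, but this window holds only 18 of the 147 H3K4me1 regions. Of those, 15 were called in every H3K4me1 list and so could not be gained or lost. The 0 is therefore not read as a difference between the marks. At WT 10 h, 7 of 98 H3K27ac regions were gained (7.14%, against 11.4% of all regions) and 2 lost (2.04%, against 1.9%). Of the gained regions 5 were in the ELF3 window, 1 in that of KLF5 and 1 in that of HNF4A. The highest of them lay over the same exon of RNPEP at -17.9 kb and was called in both 10 h lists, with a fold of 4.79 and 5.29, and in none of the other 8. There the H3K4me1 region was primed only at 0 and 1 h and acetylated at 10 h. The next by percentile were the ELF3 regions at 16.86 kb, also called in both RAD21-line lists at 1 h, and at -21.04 kb, called in both 10 h lists alone. The region -94.45 kb from KLF5 was called in 1 list of WT 1 h and in both of the untreated RAD21 line, and that at 170.72 kb from HNF4A in replicate 2 of WT 1 h. Lost were regions at -66.09 kb from ELF3 and -23.32 kb from CDX1. Among lists of one name form, both 10 h lists against replicate 2 of WT 1 h gave 7 gained and 12 lost window regions (7.14% and 12.2%, against 9.67% and 9.55% of all regions). When presence needed a -log10 q of at least 5, the 9 changed regions at 10 h became 2.

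At WT 1 h, 2 H3K27ac regions were gained (2.04%, against 1.51% of all regions), at -83.58 and 69.0 kb from ELF3, and 2 lost (2.04%, against 1.32%), at -66.09 kb from ELF3 and at -5.19 kb from CDX1. The CDX1 region is the nearest acetylation to that gene called in both lists of a group. It had a fold of 2.82 and 3.12 at WT 0 h, 2.77 in replicate 2 of WT 10 h and 3.84 in replicate 2 of the untreated RAD21 line. It was absent from the other 6 lists. Among all peaks of their lists its WT 0 h peaks stood at percentiles 9.46 and 11.3. Within one name form, replicate 1 of WT 1 h was set against both WT 0 h lists. That gave 6 gained window regions (6.12%, against 4.47% of all) and 5 lost (5.1%, against 2.25%). The RAD21 line at 1 h gained 6 regions against its own 0 h (6.12%, against 4.61% of all), led by the promoter of PDX1, a pancreatic and duodenal homeobox gene 49.03 kb from CDX2, then the ELF3 regions at 16.86 and 55.44 kb, and lost 2 (2.04%, against 2.87%), at -23.32 kb from CDX1 and -94.45 kb from KLF5. The PDX1 promoter peak was called in 6 of 6 WT lists, 0 of 2 untreated RAD21-line lists and 2 of 2 at 1 h. Untreated, the RAD21 line against WT had gained 2 regions (2.04%, against 5.28%), both in the KLF5 window at -94.45 and 10.82 kb, and lost 3 (3.06%, against 2.83%), at -66.09 kb from ELF3, -67.25 kb from KLF4 and the PDX1 promoter. At 1 h it had gained 3 regions (3.06%, against 3.24%), at -43.42, 16.86 and 55.44 kb from ELF3, and lost 0 (0%, against 1.15%). These are counts of presence with no test, and leaving out 1 list raised each total, since fewer lists then had to agree.

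Sequences are shown for 2 regions whose state changed with time, 1 that gained and 1 that lost H3K27ac, as 300 bases around the median summit on GRCh37, plus strand, with the same capitals. In all, 7 such regions were read, and the other 5 are not reported here, so the 2 do not stand for the set.
KLF5, -94.45 kb, chr13:73534564-73534863: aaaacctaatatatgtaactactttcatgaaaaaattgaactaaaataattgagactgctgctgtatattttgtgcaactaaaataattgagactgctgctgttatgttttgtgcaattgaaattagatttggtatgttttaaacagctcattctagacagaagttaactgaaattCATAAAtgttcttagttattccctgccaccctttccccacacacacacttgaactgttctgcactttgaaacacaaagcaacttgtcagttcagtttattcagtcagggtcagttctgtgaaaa
CDX1, -5.19 kb, chr5:149540989-149541288: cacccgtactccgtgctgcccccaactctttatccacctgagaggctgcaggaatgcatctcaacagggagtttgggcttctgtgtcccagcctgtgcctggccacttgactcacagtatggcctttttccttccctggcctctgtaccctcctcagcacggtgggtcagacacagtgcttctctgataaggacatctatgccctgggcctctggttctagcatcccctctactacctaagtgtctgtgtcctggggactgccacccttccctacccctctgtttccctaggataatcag

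The KLF5 sequence held 1 CDX match, and the CDX1 sequence held none of the 8 motifs. Among H3K4me1 regions, 2 were gained at 1 h (1.36%, against 3.3% of all) at 103.86 kb from CDX1 and 111.86 kb from HNF4A, and 2 lost (1.36%, against 1.75%) at -21.3 kb from KLF5 and 96.98 kb from SOX9. At 10 h, 2 were gained (1.36%, against 2.63%) at 73.92 kb from KLF5 and -24.66 kb from HNF4A, and 2 lost (1.36%, against 2.29%) at -49.61 kb from CDX1 and at the HNF4A promoter described above.

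Other genes of the same network were read from lists chosen by name. Of 24 further intestinal transcription factors, 12 had promoter H3K27ac in every list, among them HNF4G, GRHL2, HES1 and VDR, and 8 in none. At WT 0 h 13 were acetylated, 6 primed only and 5 unmarked. The promoter of EHF, an epithelial ETS factor like ELF3, was acetylated in 6 of 6 WT lists and in 0 of 4 lists of the RAD21 line, while H3K4me1 lay on it in 6 of 6 WT lists. The primed promoters included ATOH1, which specifies secretory cells, and NR5A2, while ASCL2, SPDEF and NEUROG3 had no peak of either mark in any list. Of the 12 promoter regions called in every list, 6 were ranked higher and 1 lower at WT 1 h (14.3% and 14.8% of all regions were), and 4 and 1 at WT 10 h (9.7% and 8.56%). In the RAD21 line at 1 h 3 were higher and 2 lower (14.4% and 13.4%), and between the untreated lines 4 and 1 (16.8% and 20.7%). With 12 promoters in all, nothing is read from these counts about the list. Among those called, PRDM1, a repressor of mature enterocyte genes, had a change of 1.30 at WT 10 h (SE 0.147, adjusted p = 0.000248). VDR, the vitamin D receptor, had a difference between lines in the 1 h change of -1.43 (SE 0.218, adjusted p = 0.000638). These 2 genes, and EHF above, were picked after their values were seen. The share of all coding promoters with the pattern of EHF is not given.

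**Figure D5:**
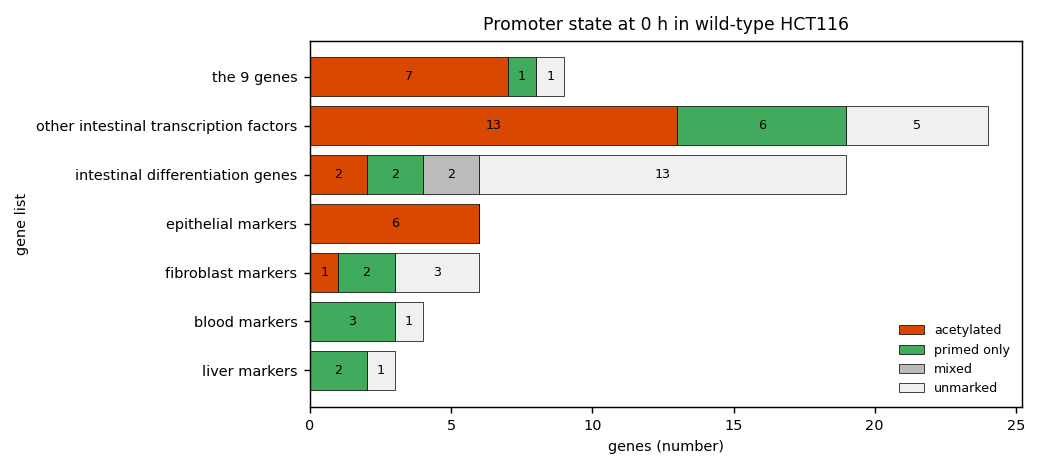
Number of genes with an acetylated, primed only, mixed or unmarked promoter at 0 h in WT HCT116, for the 9 genes and 6 other lists. Of 19 intestinal differentiation genes 13 were unmarked, against 1 of the 9 factors, and all 6 epithelial markers were acetylated.

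Of 19 genes of differentiated intestinal cells, 13 were unmarked at WT 0 h (26.8% of coding promoters were), 2 primed only and 2 acetylated. In 16 of them promoter H3K27ac was in none of the 10 lists, and 2 had it in every list (59.7% of coding promoters did). The difference from the 9 factors was not tested. CDH17, GUCY2C, FABP1, SI, LCT and ALPI, genes of enterocyte adhesion, signalling and digestion, had no peak of either mark. MUC2, the goblet cell mucin, and CDHR2, a brush border cadherin, were acetylated in every list. For MUC2, unlike CDHR2, no single promoter region was called in all 10 lists, so different regions made up its count. KRT20 was primed only at each time point.

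The promoters whose H3K27ac pattern was most like that of each factor were found by the smallest Euclidean distance over the 10 normal scores, among 10179 to 10181 promoter regions outside the window. They were ACOT13 and ITPA for CDX2 (distances 0.381 and 0.43), NAGS and GALNT4 for KLF4 (0.495 and 0.602), BRD1 and ZNF496 for KLF5 (0.316 and 0.366), and FUT2 and ROGDI for ELF3 (0.404 and 0.471). For SOX9 they were HEATR5A and KANTR (0.331 and 0.369), for GATA6 MRPL28 and ATP2A1 (0.53 and 0.558), and for FOXA1 TCF7 and KCNIP3 (0.526 and 0.587). The median promoter was between 2.11 and 4.44 away.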

How the data were processed

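H3K27ac and H3K4me1 ChIP-seq of HCT116 cells was read from 16 peak lists, 1 for each replicate, 10 for H3K27ac and 6 for H3K4me1. Input samples were not analysed here. Per the study's methods and the submitters' processing notes, the authors trimmed reads with Trim Galore 0.6.6, aligned them to GRCh37 with Bowtie2 2.3.2, removed duplicates and blacklisted regions, and called narrow (H3K27ac) or broad (H3K4me1) peaks over input with MACS2 2.2.7.1. The deposited lists give each peak a fold enrichment (a linear ratio over the control) and −log10 p-value and −log10 q-value, all from the authors' peak caller. The methods name input as the control for all, but the peak names of 3 H3K27ac lists lack that word, and whether another control or setting was used for them is not known. The lists hold no counts. The study's methods state a minimum number of valid read pairs for each mark, but the depth behind each list was not read here.

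Peaks of one mark that overlapped were merged over all lists into regions, and regions were assigned to windows by any overlap. Gene models were GENCODE lifted to GRCh37. Within each list, regions called in every list were ranked by −log10 p, and the normal scores of the ranks were tested with limma 3.58.1 (R 4.3.3), with all groups of a mark in 1 fit and Benjamini-Hochberg adjustment over the whole table at 0.05. The script was tested on simulated data. Such ranks cannot show a change shared by all regions, and a test on regions called in every list leaves out those that appear or vanish, which were counted separately as gained or lost.

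The members, gene lists and tests were chosen with earlier results of these data known. Named were all 9 genes, the promoter and leading distal region of each window, and in each comparison the 3 called regions with the smallest p in each direction; the other called regions were added after their values were seen so that every one is accounted for. Gained and lost regions were named in full up to 5 in a comparison, and otherwise the 3 of highest percentile, with others added likewise. Alternatives were ranking by fold, a 50% cover or a −log10 q of 5 for presence, a 50 kb window, wider promoters, the list form as a term, a replicate block and leaving out each list.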

Additional observations from a re-analysis of the deposited data

Results flagged for a closer look

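In 7 window regions the H3K27ac rank change after 1 h of Nutlin-3a differed between the RAD21 line and WT by limma's test of the difference itself, given as the 1 h change of the RAD21 line less the 1 h change of WT. The difference was -1.35 at the ELF3 region at 49.19 kb, -1.37 at the GATA6 region at 113.22 kb, -1.23 at the PKIG promoter, -0.89 at the KLF5 region at 67.4 kb and -0.80 at the KLF4 promoter. It was 1.44 at the SERINC3 promoter and 0.95 at the ELF3 region at 39.15 kb. With ranking by fold enrichment 0 of the 7 were called. Replicate 1 of WT 1 h shares the list form of WT 0 h and replicate 2 that of the RAD21 line. A fit with list form as a term was run for these differences, but its values are not given here. It takes the effect of form from the lists of WT 1 h alone, so it cannot settle the part of form in them. Groups of 2 lists are too small for a check of single lists that stand apart.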

How the results depend on the processing

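The count of called window regions at WT 1 h, WT 10 h, in the RAD21 line at 1 h, between the untreated lines, between the lines at 1 h, for the difference of the 1 h changes, and for H3K4me1 at 1 and 10 h was 8, 5, 7, 10, 5, 7, 1 and 1. With a replicate block it was 8, 6, 6, 10, 5, 7, 1 and 1, and in each comparison the calls of the 3 regions with the smallest p in each direction did not change. Replicate numbers did not pair the lists (13 correlations of deviations, from -0.0501 to 0.0453). Ranked by fold it was 0 at WT 1 h, 8 at WT 10 h, 0 in the RAD21 line, 0 between lines at 1 h, 0 for the difference, and 0 and 0 for H3K4me1. With 50% cover it was 2, 1, 2, 3, 3 and 3 in the H3K27ac comparisons and 0 for H3K4me1 at 10 h. A 50 kb window gave 5 at WT 1 h, 4 in the RAD21 line, 4 for the difference and 0 for H3K4me1 at 1 h. The list form as a term gave 1 at WT 10 h and reversed the change of the LINC00543 exon to 0.05. A −log10 q of 5 gave 0 for H3K4me1 at 10 h. The causes were not tested.

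Leaving out 1 list gave 1 to 10, 1 to 10, 3 to 11, 7 to 15, 0 to 8, 5 to 13, 0 to 0 and 0 to 1 called regions in the same order, where a lone list is assumed to vary like the other groups. Gained and lost regions together were then 7 to 15 at WT 1 h, 14 to 17 at WT 10 h, 11 to 17 in the RAD21 line, 8 to 13 between the untreated lines and 7 to 15 at 1 h, and 7 to 17 and 8 to 13 for H3K4me1. With 50% cover they were 7, 20, 4, 9 and 5, and 7 and 9 for H3K4me1. A −log10 q of 5 gave 2, 2, 3 and 0 in the first 4, and 0 and 0 for H3K4me1. A 50 kb window gave 1 at WT 1 h, 5 in the RAD21 line, 2 between the untreated lines and 2 for H3K4me1 at 1 h. Of the 9 promoters, a −log10 q of 5 left 0 primed only at 0 h and 2 unmarked at 0 h and 2 at 1 h. Promoters of 2500 bp before and 500 bp after the start gave 0 unmarked at 0 h, 0 at 1 h and 1 at 10 h, and 1 primed only at 1 h. Leaving out 1 list gave 0 to 1 primed only and 1 to 2 unmarked at 1 h. Summed coverage with a −log10 q of 5 was 42.1 kb at WT 0 h, 65.9 kb at WT 10 h, 58.2 and 79.0 kb in the RAD21 line, and 254, 255 and 245 kb of H3K4me1, and in a 50 kb window 33.7, 57.4, 46.8, 63.9, 188, 200.0 and 180.0 kb. Of the named region calls, 364 of these values kept their direction and side of the threshold, 96 lost the call and 1 reversed. A call with no value under a setting is not among these. With 50% cover only 11 named calls had a value, and all 11 kept the call. Ranked by fold, 7 kept it and 26 lost it. Precision is limited by 2 lists a group, and the depth behind each list was not read here.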
